A study of Mus musculus with 7 samples.

Results

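Prdm16, Mecom, Prdm2, Prdm4, Prdm8 and Prdm10, 6 genes of the PRDM family, were followed by gene symbol among the 32285 genes counted in single cells of the mouse ventricular-subventricular zone (V-SVZ), the neurogenic tissue along the lateral ventricles. The data held 3 control libraries (Prdm16 fl/fl, without Cre), 3 Prdm16 cKO libraries (hGFAP-Cre+/-; Prdm16 fl/fl) and 1 Prdm16-Vcam1 DKO library, with the genotype of the cKO plus Vcam1 fl/fl. The floxed Prdm16 allele was thus common to all mice, and hGFAP-Cre was present in the cKO and DKO mice. The study describes this Cre as expressed in astrocytes and in embryonic radial glia. Neural cells that arise from such radial glia can carry the deleted allele. Each library pooled the V-SVZ of 2 to 3 mice of 1 genotype at postnatal days 31 to 33, so that the spread between libraries is a spread between pools. The control label names the floxed gene only as Prdm, and the genotype given here for controls follows the study's methods.

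PRDM proteins carry a PR domain, related to the SET domain of histone methyltransferases, and most carry zinc fingers, through which they act on chromatin as transcriptional regulators. Prdm16 is known for its role in brown fat identity and in stem cells of blood and brain, and in the developing cortex it is made by radial glia. Mecom, also called Evi1, is the closest relative of Prdm16 and is best known in blood stem cells and endothelium. Prdm2 (Riz1) and Prdm8 have been described as histone methyltransferases, Prdm8 also as a neuronal repressor, and Prdm4 and Prdm10 as zinc finger regulators of progenitors and embryonic cells.

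In the GENCODE vM21 annotation of GRCm38 all 6 genes are protein coding. Prdm16 (ENSMUSG00000039410) lies on the minus strand of chromosome 4 from 154316125 to 154636873 and has up to 17 exons, and Mecom (ENSMUSG00000027684) lies on the minus strand of chromosome 3 from 29951296 to 30548008. A noncoding antisense gene, Prdm16os (ENSMUSG00000085069), starts 703 bases from the annotated Prdm16 start on the plus strand and reads away from it. The pair is shown because their UMIs are set against each other below. The 250 bases before each start in RefSeq (GRCm38.p6), chr4:154636874-154637123 on the minus strand for Prdm16 and chr4:154637330-154637579 on the plus strand for Prdm16os, are printed 5′ to 3′ with the GC boxes in capitals (GGGCGG, or CCGCCC where it lies on the other strand).
Prdm16: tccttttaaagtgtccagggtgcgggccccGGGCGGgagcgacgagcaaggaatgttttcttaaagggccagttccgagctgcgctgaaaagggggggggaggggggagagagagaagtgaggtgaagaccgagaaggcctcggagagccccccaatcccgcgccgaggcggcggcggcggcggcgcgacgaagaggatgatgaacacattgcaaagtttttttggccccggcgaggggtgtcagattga
Prdm16os: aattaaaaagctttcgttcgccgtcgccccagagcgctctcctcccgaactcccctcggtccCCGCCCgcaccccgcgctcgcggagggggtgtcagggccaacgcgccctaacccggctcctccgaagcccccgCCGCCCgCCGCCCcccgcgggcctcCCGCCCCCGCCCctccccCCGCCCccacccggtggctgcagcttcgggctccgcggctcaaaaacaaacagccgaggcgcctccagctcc
The Prdm16 window held 1 GC box and 22 CpG dinucleotides, and the Prdm16os window held 6 GC boxes and 32 CpG dinucleotides. Of 32851 RefSeq windows of the same 250 bases, 32.7% held at least 1 GC box and 7.69% held 3 or more, and the median window had 6 CpG dinucleotides.

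The libraries held 45758003 to 141353017 UMIs (unique molecular identifiers, each counting 1 captured mRNA molecule), and 43346 of 65049 barcodes passed the filter of 500 to 7000 genes and at most 10% mitochondrial counts. The share kept was 49.8% and 47.2% in cKO libraries 2 and 3 and 70.2% to 74.7% in the other 5 libraries. Pairs of libraries shared 2 to 70 cell barcodes. Clusters built without the PRDM genes and Prdm16os were named from marker genes, and 11 types could be compared. The NSC-like cluster also carried 8 of 9 astrocyte markers beside 8 of 9 neural stem cell markers, and 4 clusters stayed unnamed. Levels are given as CPM, UMIs of the gene per 1000000 UMIs of that type in that library. Fold changes are log2 values for cKO against control, fitted to the sums per library by edgeR (quasi-likelihood), and adjusted p-values follow Benjamini-Hochberg over all genes of the type. Whether fewer cells with a transcript or fewer transcripts per cell lie behind such a sum was not tested.

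Prdm16 was highest in NSC-like cells, the cells that resemble adult neural stem cells (type B cells). In control libraries 1, 2 and 3 these held 76.5, 63.7 and 71.1 CPM, a mean of 70.4 ± 6.42 (SD, n = 3). Astrocyte-like cells followed at 48.1 ± 3.29 CPM, and the ranges of both types did not overlap. Ependymal-like cells (23.4 ± 3.41 CPM) and endothelial-like cells (22.4 ± 4.87 CPM) came next and overlapped with each other. TAP-like cells, the dividing transit amplifying progenitors, held 14.2 ± 3.00 CPM, and their range lay below that of endothelial-like cells but overlapped that of mural-like cells (8.53 ± 9.14 CPM). The level fell further over neuron-like (4.58 ± 1.80 CPM), microglia-like (2.57 ± 2.22), neuroblast-like (1.98 ± 0.0599), OPC-like (1.52 ± 1.16) and oligodendrocyte-like cells (1.26 ± 0.235), where each type overlapped the next. Along the neurogenic path the control mean was thus 70.4 CPM in NSC-like, 14.2 in TAP-like and 1.98 in neuroblast-like cells. A part of the TAP-like cells, a cluster of 2053 cells, passed 4 of 8 TAP markers and also 4 neuroblast markers. At resolution 0.3 a cluster of 2118 cells with the same leading genes stayed unnamed.

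**Figure D1:**
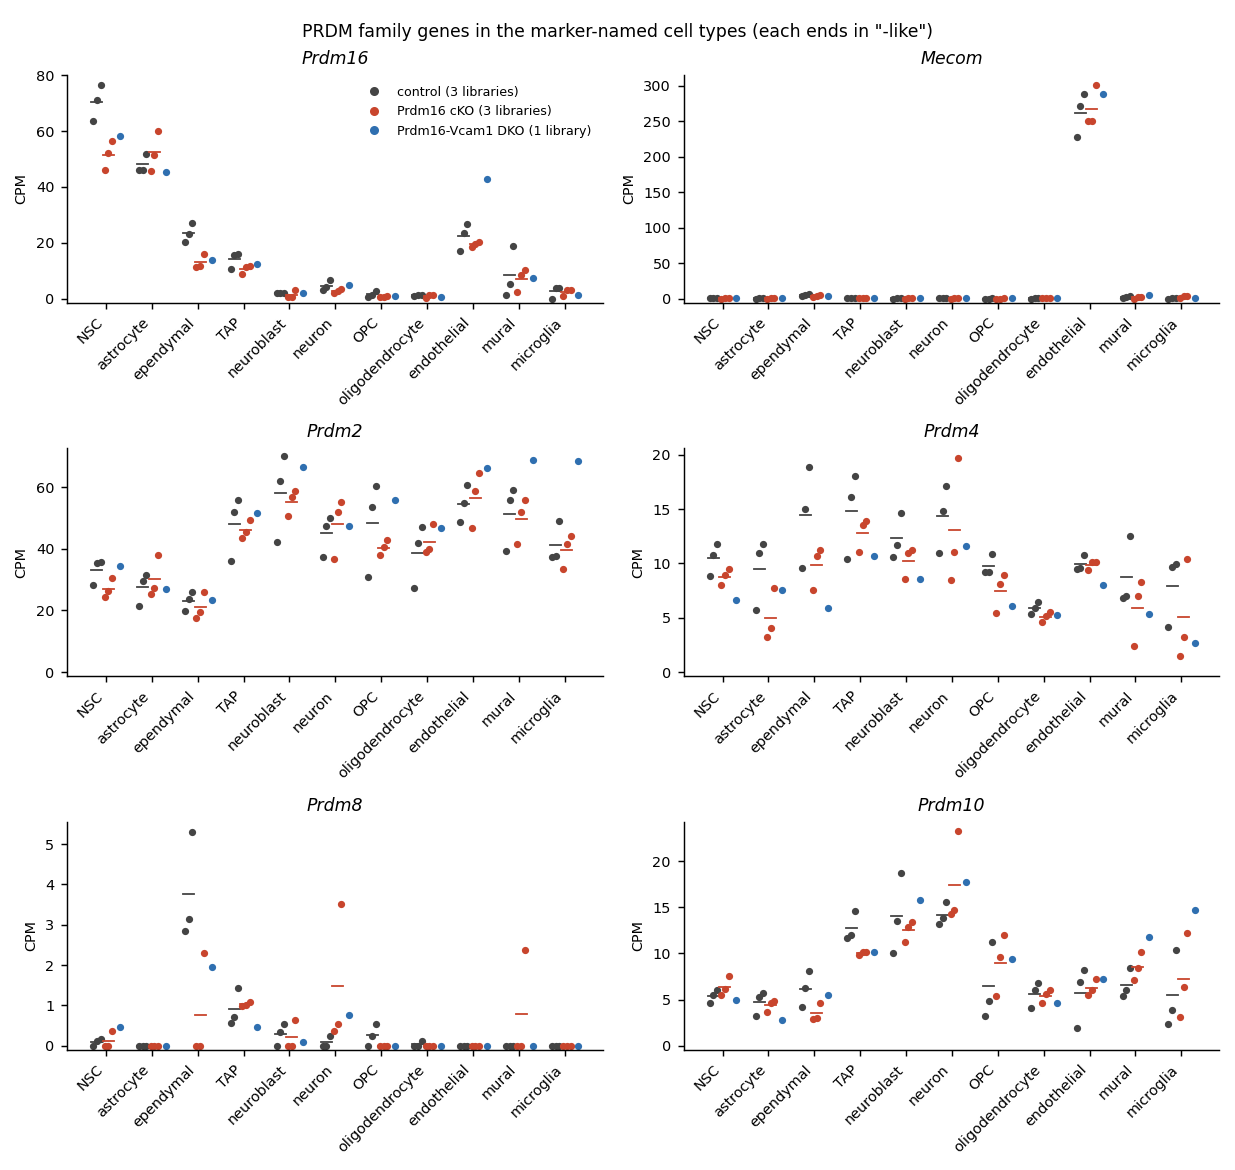
CPM (vertical axes, linear, a scale of its own in each panel) of the 6 genes in 11 marker-named cell types, with 1 point per library and short lines for the means of the 3 control and 3 cKO libraries. Prdm16 peaked in NSC-like cells at a control mean of 70.4 CPM and Mecom in endothelial-like cells at 262 CPM, while Prdm2, Prdm4 and Prdm10 were found in every type.

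Prdm16 was sparse in single cells. It was counted in 4789 of 43346 kept cells, and 73.0% of these held a single UMI. A UMI was found in 36.7% of NSC-like control cells (median depth 7154 UMIs in the middle library) and in 1.82% of oligodendrocyte-like control cells (median 21032 UMIs), a type taken to lack the gene. After each cell was thinned to 2000 UMIs the expected shares were 12.8% ± 1.15 and 0.323% ± 0.141 (SD, n = 3).

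The question of the genotype comparison is whether the mRNA of the targeted gene differs in the mutant. Counts of 3′ ends cannot tell a transcript without the floxed part from a whole one, and the sources used here do not name the deleted exons, so this is no measure of deletion. By immunofluorescence the study found Prdm16 protein in the cKO V-SVZ reduced by birth and almost undetectable later. These mRNA counts do not measure protein. Against the control values above, NSC-like cells of cKO libraries 1, 2 and 3 held 56.4, 52.1 and 46.1 CPM of Prdm16, and those of the DKO library held 58.1 CPM. All 3 cKO libraries lay below all 3 control libraries, as did the DKO library. The log2 fold change was -0.36 (SE 0.14, unadjusted p = 0.0294, adjusted p = 0.298, edgeR), so that the difference did not pass the threshold over all genes, and the exact permutation test gave p = 0.1, the smallest that 3 libraries against 3 allow. Of all 14309 genes tested in this type, 13.8% had an unadjusted p under 0.05 and 10.1% had all cKO libraries below all control libraries. When the libraries were clustered without integration, the fold change was -0.08, but that NSC-like cluster held 17 and 16 cells of cKO libraries 2 and 3 instead of 199 and 612, so that other cells were compared. An unnamed cluster of low depth (median 1185 UMIs) that was led by hemoglobin genes and carried 3 of 9 neural stem cell markers held 151, 197 and 923 cells of cKO libraries 1, 2 and 3 and 617, 250 and 655 of control libraries 1, 2 and 3. At resolution 0.3 a cluster of 2900 cells of like depth was named NSC-like as well, and with it the estimate was -0.33. Within the libraries of Cell Ranger 6.0.1 it was -0.26 and between control library 3 and cKO library 3, both of version 6.1.1, it was -0.62 with no test.

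The NSC-like cells also differed in the markers of other types, as 7 of 15 marker lists did not overlap between cKO and control libraries, 2 with the cKO libraries higher and 5 with them lower. The summed level of 7 markers of oligodendrocyte precursors was 2154 to 2594 CPM in the control libraries and 660 to 1941 CPM in the cKO libraries, and that of 9 astrocyte markers was 1739 to 1922 against 1977 to 2477 CPM. Their part in the Prdm16 values was not tested. UMIs assigned to Prm1 were counted in 26.7%, 69.3% and 77.0% of the NSC-like cells of cKO libraries 1, 2 and 3 and in 39.4% of those of the DKO library, but in 1 cell over the 3 control libraries. Whether they come from the Prm1 gene itself was not tested. Prdm16 in cells with and without a Prm1 UMI was 48.7 and 61.0 CPM in cKO library 1, 52.0 and 52.8 in cKO library 2, 44.4 and 55.4 in cKO library 3, and 49.3 and 65.8 in the DKO library. It was lower in the cells with Prm1 in all 4 libraries, whose cells with Prm1 were also deeper (median 6732 to 14652 UMIs against 4865 to 9012 UMIs), and this split was described without a test. In the other glia the direction was mixed. In astrocyte-like cells of the DKO library the cells with Prm1 held 52.0 CPM against 40.7 without. In ependymal-like cells of cKO library 2 the cells with Prm1 held 13.54 against 10.48 CPM, from only 6 and 13 Prdm16 UMIs. The other 3 libraries of each type had less Prdm16 in the cells with Prm1. Ependymal-like cells with Prm1 held only 6 to 20 Prdm16 UMIs in each Cre library.

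Ependymal-like cells, the ciliated cells of the ventricle wall, showed the same order with a larger estimate. The values of control libraries 1, 2 and 3 were 27.0, 23.0 and 20.2 CPM, those of cKO libraries 1, 2 and 3 were 16.2, 11.3 and 11.7 CPM, and the DKO library had 13.7 CPM. The groups did not overlap (exact permutation p = 0.1, the smallest possible), and edgeR gave a log2 fold change of -0.76 (SE 0.20, unadjusted p = 0.0028, adjusted p = 0.212), again short of the threshold. Among 13905 genes of this type 8.49% had an unadjusted p under 0.05 and 7.13% had all cKO libraries below all control libraries. The estimate was -0.79 within version 6.0.1 and -0.79 between the pair of version 6.1.1. With a limit of 5% mitochondrial counts it was -0.29, as control libraries then held 21.8, 13.5 and 17.4 CPM and cKO libraries 20.3, 8.40 and 14.4 CPM, from 6 to 60 UMIs per library. The median depth of ependymal-like cells was 1322 to 2699 UMIs in control libraries, 3106 to 8154 UMIs in cKO libraries and 1858 UMIs in the DKO library. The part of depth in the difference was not tested. Of 15 marker lists 3 did not overlap between the groups in these cells. Neuroblast markers summed to 895 to 1047 CPM in control and 652 to 879 CPM in cKO libraries, fibroblast markers to 38.4 to 42.7 and 16.4 to 32.3 CPM, and smooth muscle markers to 477 to 693 and 733 to 1038 CPM, and their part was not tested.

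**Figure D2:**
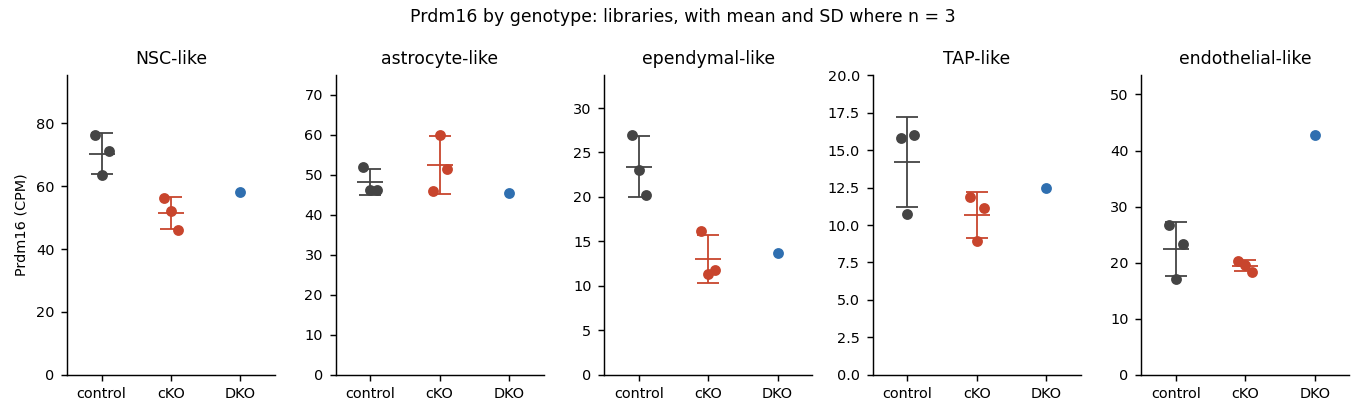
Prdm16 level (CPM, linear axes from 0) by genotype in 5 cell types, with 1 point per library and the mean ± SD of 3 libraries for control and cKO. The cKO libraries lay below the controls in NSC-like and ependymal-like cells, the groups overlapped in the other 3 types, and the DKO library stood apart at 42.8 CPM in endothelial-like cells.

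In astrocyte-like cells Prdm16 did not follow this order. Control libraries held 51.9, 46.2 and 46.2 CPM and cKO libraries 45.9, 60.0 and 51.4 CPM, with 45.5 CPM in the DKO library, and the groups overlapped. The log2 fold change was 0.12 (SE 0.16, adjusted p = 0.862, edgeR), with -0.23 when NSC- and astrocyte-like cells were summed together. In TAP-like cells control libraries held 15.8, 10.7 and 16.0 CPM and cKO libraries 11.9, 8.91 and 11.2 CPM (log2 fold change -0.33, SE 0.21, adjusted p = 0.791, edgeR). In neuroblast-like cells, where a library held 1 to 22 Prdm16 UMIs, the log2 fold change was -0.46 (SE 0.66, adjusted p = 0.843, edgeR). Whether the change differed between cell types was not tested.

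Endothelial-like cells line the vessels and derive from outside the neural lineage. Prdm16 there was 26.7, 17.1 and 23.4 CPM in control libraries and 20.3, 19.5 and 18.4 CPM in cKO libraries, which overlapped (log2 fold change -0.12, SE 0.23, adjusted p = 1.00, edgeR). The DKO library held 42.8 CPM from 160 UMIs, with an exact 95% Poisson interval of 36.5 to 50.0 CPM that covers counting error only. Of the other 6 libraries control library 1 was the highest, and its interval of 19.0 to 36.5 CPM met that of the DKO library at its end. The DKO library was not tested against the other libraries. Endothelial-like cells with a UMI of Bmx, Gkn3, Sema3g, Gja4 or Fbln5, arterial genes chosen after the first results were seen, held more Prdm16 than the other endothelial-like cells in all 7 libraries, by 1.19 to 2.42 times, and were deeper in all 7. In the DKO library 29.4% of cells were of this kind, against 16.1% to 27.9% in the others, and the summed level of the 5 genes was 237 CPM, against 279 to 406 CPM. The cells without a UMI of these genes held 37.7 CPM of Prdm16 in the DKO library and 12.99 to 25.68 CPM in the other 6. The part of the arterial share in the DKO value was not tested. In mural-like cells 43 of 54 Prdm16 UMIs came from the 129 of 1126 cells with more smooth muscle than pericyte marker UMIs (34.9 CPM against 2.44 CPM).

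Prdm16os was found in the same types as Prdm16. Its control level was 125 ± 23.9 CPM in NSC-like, 112 ± 20.2 in astrocyte-like, 14.4 ± 2.06 in ependymal-like and 6.71 ± 1.30 in TAP-like cells (SD, n = 3). Over the 33 points of 3 control libraries and 11 types, log2(CPM + 1) of both genes correlated with a Pearson r of 0.87, given as a description since the points share libraries and depth. In endothelial-like cells, where Prdm16 was 22.4 CPM, Prdm16os was 5.71 CPM.

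No test of Prdm16os between cKO and control passed the threshold, and whether its change differed between types was not tested. In NSC-like cells, where both genes were highest, its mean was 125 ± 23.9 CPM in control and 100.2 ± 24.8 CPM in cKO libraries, with 136 CPM in the DKO library and overlapping groups (log2 fold change -0.23, SE 0.19, adjusted p = 0.650, edgeR). In astrocyte-like cells it was 135, 97.3 and 103 CPM in control and 82.4, 98.98 and 77.2 CPM in cKO libraries, with overlap (log2 fold change -0.37, SE 0.16, unadjusted p = 0.0364, adjusted p = 0.433, edgeR). In TAP-like cells it was 7.54, 5.21 and 7.37 CPM in control and 6.79, 11.7 and 11.3 CPM in cKO libraries, again with overlap (log2 fold change 0.61, SE 0.26, unadjusted p = 0.0356, adjusted p = 0.676, edgeR). In ependymal-like cells it was 13.9, 12.6 and 16.6 CPM in control libraries, 22.2, 24.95 and 17.4 CPM in cKO libraries and 22.7 CPM in the DKO library, higher in each Cre library than in any control library (log2 fold change 0.54, SE 0.22, unadjusted p = 0.0259, adjusted p = 0.471, edgeR), and 5.51% of genes there had all cKO libraries above all control libraries. There the ratio of Prdm16os to Prdm16 UMIs was 0.627 ± 0.168 in control and 1.69 ± 0.455 in cKO libraries, and 1.66 in the DKO library. In TAP-like cells it was 0.474 ± 0.0134 against 0.966 ± 0.373, with 0.632 in the DKO library. The direction was the other way in astrocyte-like cells, where the ratio was 2.31 ± 0.256 in control and 1.65 ± 0.147 in cKO libraries but 2.39 in the DKO library, and in NSC-like cells the groups overlapped (1.77 ± 0.181 against 1.93 ± 0.296, with 2.34 in the DKO library). Groups of 3 did not overlap in 3 of these 4 types, each with an exact permutation p = 0.1, the smallest possible, and the ratio was chosen after the first results were seen. In ependymal-like cells Prdm16 was lower and Prdm16os higher in every cKO than in every control library. The ratio there could thus not overlap, and its p-value adds nothing to the levels. No background of such ratios over other gene pairs was computed.

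**Figure D3:**
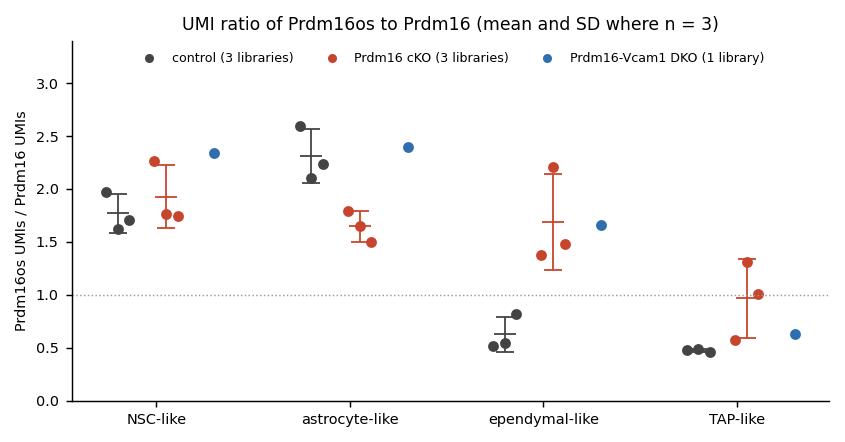
UMIs of Prdm16os divided by UMIs of Prdm16 (vertical axis, linear from 0) in 4 cell types, with 1 point per library and the mean ± SD of 3 libraries for control and cKO. The ratio was above 1, the dotted line, in the ependymal-like cells of all 4 Cre libraries (cKO mean 1.69, DKO 1.66) at a control mean of 0.627, and it was lower in cKO than in control astrocyte-like cells (1.65 against 2.31).

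Mecom was an endothelial gene in this tissue. Endothelial-like cells held 288, 228 and 271 CPM in control libraries 1, 2 and 3, 250, 301 and 250 CPM in cKO libraries 1, 2 and 3 and 288 CPM in the DKO library. The groups overlapped and the log2 fold change was 0.13 (SE 0.18, unadjusted p = 0.467, adjusted p = 1.00, edgeR). These cells were 6.38% of the kept cells and held 76.7% of all Mecom UMIs, and a further 1023 UMIs came from an unnamed cluster of 342 cells that carried endothelial and pericyte markers together. A Mecom UMI was seen in 58.0% of endothelial-like control cells (median 4172 UMIs) and in 0.340% of NSC-like control cells (median 7154 UMIs), or in 38.4% ± 1.37 and 0.107% ± 0.0289 after thinning to 2000 UMIs.

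Mecom was low in the other named types. Ependymal-like cells came next, at 5.20 ± 1.13 CPM in control libraries, and did not overlap the mural-like cells below them at 2.07 ± 0.842 CPM. The other types had control means of 0.161 to 0.833 CPM and could not be ordered. Within endothelial-like cells those with a UMI of the 5 arterial genes held 1.71 to 2.05 times the Mecom level of the others in the 3 control libraries, 1.13 to 1.89 times in the cKO libraries and 1.00 times in the DKO library. Mecomos, an antisense gene that overlaps Mecom, had 48 UMIs in all.

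Cells with UMIs of both genes were mostly endothelial. In endothelial-like cells 15.1% of the cells with a Mecom UMI also had a Prdm16 UMI, against 6.65% of those without, and the part of depth in this was not tested. In NSC-like cells 14 of 5092 cells had UMIs of both, and in ependymal-like cells 19 of 2769. Across the 33 control points the Pearson r of Prdm16 and Mecom was 0.32.

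Prdm2 was present in every type. Its control mean ran from 58.1 ± 14.4 CPM in neuroblast-like cells to 23.2 ± 3.06 CPM in ependymal-like cells, and each type overlapped the next in this order. NSC-like, astrocyte-like and ependymal-like cells, which were high in Prdm16, took the last 3 places at 33.1, 27.5 and 23.2 CPM, whereas endothelial-like cells, whose Prdm16 level overlapped that of ependymal-like cells, came next to the top at 54.7 CPM. The r of both genes was -0.42 over the 33 points. In neuroblast-like cells control libraries held 70.1, 42.1 and 62.1 CPM and cKO libraries 58.6, 56.8 and 50.5 CPM (log2 fold change -0.02, SE 0.18, adjusted p = 0.982, edgeR). Control library 2 was the lowest control library in every one of the 11 types, so that the spread of Prdm2 among controls was shared by cell types.

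Prdm4 and Prdm10 were low and broad. Prdm4 ran from 14.9 ± 3.94 CPM in TAP-like to 5.91 ± 0.568 CPM in oligodendrocyte-like control cells, with overlap between all neighbors. In TAP-like cells its log2 fold change was -0.12 (SE 0.20, adjusted p = 0.920, edgeR). In astrocyte-like cells Prdm4 was 10.98, 11.8 and 5.72 CPM in control and 7.71, 4.06 and 3.19 CPM in cKO libraries, from 5 to 29 UMIs each, with overlapping groups (log2 fold change -0.85, SE 0.40, unadjusted p = 0.0481, adjusted p = 0.480, edgeR), in a type where 10.2% of genes had an unadjusted p under 0.05. This estimate was -1.37 without cKO library 1, -0.54 without cKO library 3, -0.33 without integration and -0.34 with NSC- and astrocyte-like cells together. Prdm10 was highest in neuron-like, neuroblast-like and TAP-like control cells, at 14.2 ± 1.22, 14.1 ± 4.35 and 12.8 ± 1.63 CPM, and the range of TAP-like cells did not overlap that of mural-like cells below them (6.60 ± 1.62 CPM). In neuron-like cells the log2 fold change of Prdm10 was 0.25 (SE 0.26, adjusted p = 1.00, edgeR).

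Prdm8 was close to absent from most types, with 174 UMIs in all 43346 cells. Of these, 72 lay in TAP-like and 57 in ependymal-like cells. No UMI was counted in astrocyte-like, endothelial-like or microglia-like cells in any library. In ependymal-like cells Prdm8 was 5.29, 3.14 and 2.85 CPM in control libraries 1, 2 and 3, from 19, 3 and 22 UMIs, 2.31 CPM in cKO library 1 from 8 UMIs, and 1.96 CPM in the DKO library from 5 UMIs. No UMI was counted in cKO libraries 2 and 3. The groups did not overlap, and the log2 fold change was -2.05 (SE 0.87, unadjusted p = 0.0353, adjusted p = 0.523, edgeR). In this type Prdm8 passed the filter on low counts only through control libraries, where it was higher. The test and the lack of overlap are thus no independent support for a difference. Without cKO library 1 the adjusted p was 0.0324, where both remaining cKO libraries are at 0 and the fitted fold change gives no size. With a limit of 5% mitochondrial counts cKO library 1 held 0 UMIs as well. Control libraries 1, 2 and 3 then held 3, 2 and 11 UMIs and the DKO library held 5.

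Over all 6 genes, 46 of the 66 pairs of gene and cell type had enough counts to be tested, and the other 20 pairs did not pass the filter on low counts. None of the 46 was called by edgeR at an adjusted p of 0.05, against 0.145% of all 139975 tests in the 11 types. Without adjustment 4 of 46 had a p under 0.05 (background 6.25%), which were Prdm16 in ependymal-like and NSC-like cells, Prdm4 in astrocyte-like and Prdm8 in ependymal-like cells, and DESeq2 gave 0 called and 2 with a p under 0.05. The groups did not overlap in 6 of 46 (background 11.1%). In 5 all cKO libraries lay below all control libraries (background 7.2%), namely Prdm16 in NSC-like and ependymal-like cells, Prdm8 in ependymal-like, Prdm10 in TAP-like and Prdm4 in OPC-like cells, and in Prdm8 of neuron-like cells they lay above (background 3.9%). Prdm8 passed the filter in ependymal-like and neuron-like cells only through libraries of the group where it was higher, so these pairs are no independent support. The estimate was below 0 in 31 of 46, in 8 of 9 for Prdm16 and in 8 of 9 for Prdm4, with a median of -0.12 against 0.00 for all genes. The counts of members were thus near the background.

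**Figure D4:**
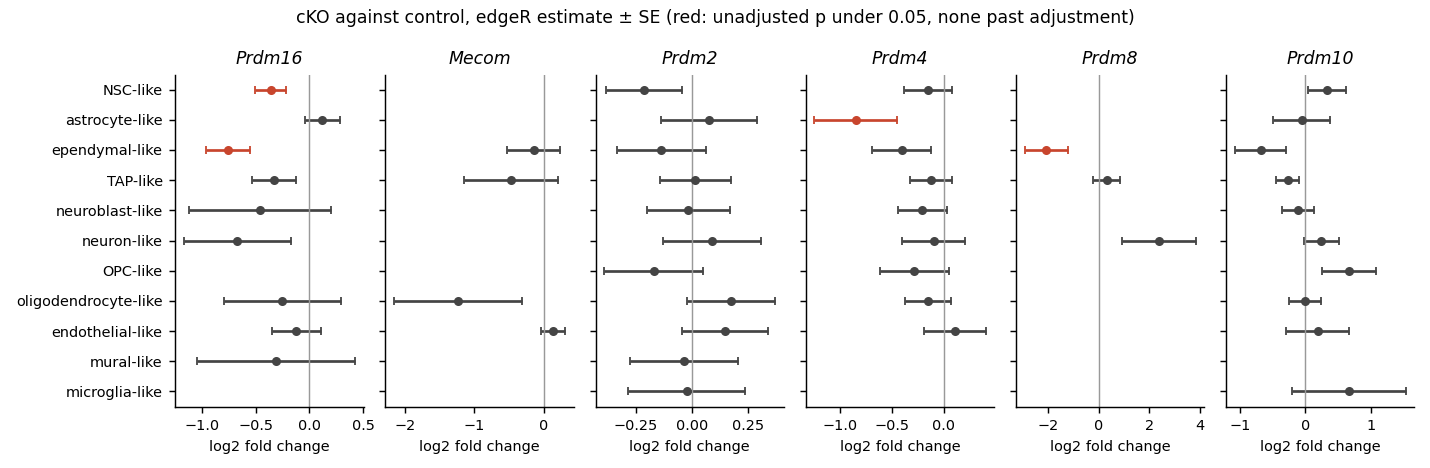
Log2 fold change of cKO against control (horizontal axes, a scale of its own for each gene) with its SE, from edgeR, for the 46 pairs of gene and cell type that were tested. The 4 pairs with an unadjusted p under 0.05 are in red, none passed adjustment, and types without a point did not pass the filter on low counts.

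The other PRDM genes formed a list of 9, of which 6 passed the filter in at least 1 type. None of their 36 tests was called by edgeR (background 0.145%), 4 had an unadjusted p under 0.05 (background 6.25%), and the median log2 fold change was -0.11 against 0.00 for all genes. Prdm1, best known from plasma cells, had its highest control mean in mural-like cells (37.9 CPM) and Prdm15 in neuroblast-like cells (20.4 CPM). Prdm6, Prdm12 and Prdm14 had 2, 4 and 6 UMIs in all.

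Prdm13, which specifies inhibitory neurons in spinal cord and retina, stood apart within this list and was singled out after its values were seen. In TAP-like cells control libraries 1, 2 and 3 held 23, 4 and 21 UMIs (1.65, 0.311 and 0.979 CPM). The cKO libraries held 60, 178 and 297 UMIs (5.43, 45.3 and 41.5 CPM) and the DKO library held 191 (11.3 CPM). Each Cre library was thus above each control library (4.13% of genes in this type had all cKO above all control libraries), with cKO libraries 2 and 3 far above cKO library 1. A UMI was found in 1.36%, 0.552% and 1.49% of control cells, in 3.49%, 30.2% and 25.7% of cKO cells and in 9.61% of DKO cells. The log2 fold change was 4.996 (SE 1.151, unadjusted p = 0.0105), and the adjusted p was 0.612 with edgeR and 2.1e-04 with DESeq2. The adjusted p passed in 2 of 19 alternatives and reached 1.00 in another. Without cKO library 1, the lowest of the cKO libraries, edgeR gave a log2 fold change of 5.52 and an adjusted p of 3.6e-06. As Prdm13 was singled out after its values were seen, these p-values are no independent support. TAP-like cells numbered 916, 169 and 412 in cKO libraries 1, 2 and 3, and the part of this in the values was not tested.

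In neuron-like cells no Prdm13 UMI was counted in 1178 control cells, which allows a share of up to 0.255% of cells with a UMI. The cKO libraries held 30, 46 and 73 UMIs (15.8, 32.4 and 6.62 CPM) and the DKO library held 20 (5.06 CPM). The mean of the cKO libraries was 18.3 CPM, or 11.2 CPM without cKO library 2. The limit that 0 counts allow (3 UMIs) was 1.97, 1.01 and 0.239 CPM in control libraries 1, 2 and 3. Pooled over the 3 control libraries it was 0.176 CPM, or 0.669 CPM without control library 3, which held most of the control cells. A mean over libraries and a pooled limit are unlike measures, so no fold is given. The adjusted p was 0.0511 with edgeR, just short of the threshold, and it was 4.7e-08 with DESeq2, and it passed in 9 of 17 alternatives, between 4.8e-25 and 0.667. With 0 control UMIs, Prdm13 passed the filter on low counts in this type only through the Cre libraries, where it was high. It was also singled out after its values were seen, so these p-values and the passing alternatives are no independent support. In this type 2.4% of genes had all cKO above all control libraries. Of 15 marker lists 2 did not overlap between the groups in neuron-like cells, both with the cKO libraries lower. In 1 of these, the 9 neuron markers summed to 13771 to 17292 CPM in control and 11375 to 13258 CPM in cKO libraries. The part of these markers was not tested. Of the 169 UMIs in the 4 Cre libraries, all but 1 lay in 1 of the 2 neuron-like clusters, a small cluster of 469 cells in which 66 cKO cells had a UMI and the control libraries had 160 cells and no UMI. Within it the mean of the cKO libraries was 95.6 CPM. The limit from 0 counts was 8.35, 14.9 and 2.77 CPM in control libraries 1, 2 and 3. The place of these cells depended on the clustering. The small cluster passed 5 of 9 neuron and 3 neuroblast markers. Its leading genes were the interneuron genes Sst and Npy, followed by Nos1, Lhx6, Crabp1, Neurod1, Vsnl1, Pthlh, Resp18 and Nhlh1. With markers of both types, this cluster does not place Prdm13 in interneurons. At resolution 0.3 Sst and Npy led a neuroblast-like cluster of 2046 cells, neuron-like cells held 1 Prdm13 UMI in the cKO libraries, and neuroblast-like cells held 158 in the cKO and 1 in the control libraries (adjusted p = 5.1e-04, edgeR). There too Prdm13 passed the filter only through the Cre libraries. Without integration the neuron-like cluster led by Sst and Npy held 7, 1 and 31 cells of cKO libraries 1, 2 and 3 instead of 60, 35 and 134, neuron-like cells held 3 UMIs, and the TAP-like cells of the cKO libraries held 688 UMIs instead of 535. Prdm13 in neuron-like cells did not pass the filter in either case. TAP-like cells of the cKO libraries also held more of the 9 neural stem cell markers (1257 to 1818 CPM against 882 to 1146 CPM in controls), whose part was not tested.

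**Figure D5:**
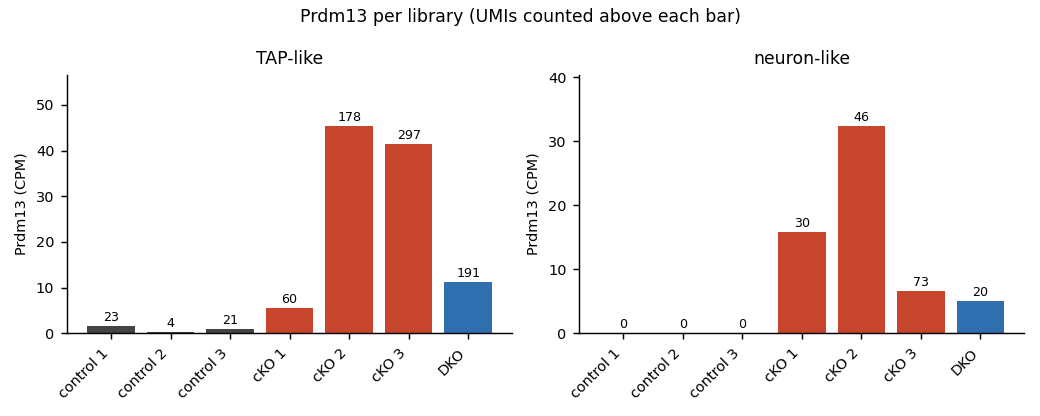
Prdm13 (CPM, linear axes from 0) in TAP-like and neuron-like cells of each library, with the number of UMIs above each bar. TAP-like cells of cKO libraries 2 and 3 held 45.3 and 41.5 CPM against at most 1.65 CPM in the control libraries, and neuron-like cells of the control libraries held 0 UMIs.

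Known partners of PRDM16 and genes it turns on in brown fat were counted from lists. Of 20 partners and cofactors, 18 passed the filter in at least 1 type, and 1 of 187 tests was called (background over all types 0.145%). This was Cebpb, a transcription factor that partners PRDM16 in brown fat, in astrocyte-like cells, where control libraries held 25.8, 21.9 and 20.8 CPM, cKO libraries 11.8, 5.68 and 10.2 CPM and the DKO library 12.6 CPM. Cebpb fell there by 1.20 on the log2 scale (SE 0.26, adjusted p = 0.0284, edgeR), in all 3 cKO libraries, in a type where 1.27% of genes were called. The call was lost without any 1 of the 3 control libraries or of cKO libraries 2 and 3 (adjusted p 0.0863 to 0.111) and with a limit of 5% mitochondrial counts, and without integration the estimate was 0.31, where the astrocyte-like cluster held 452 and 1826 cells of cKO libraries 2 and 3 instead of 101 and 341 and had a median depth of 2100 UMIs. In ependymal-like cells Cebpb was 204, 239 and 182 CPM in control and 173, 105 and 115 CPM in cKO libraries, which did not overlap either (log2 fold change -0.60, SE 0.18, unadjusted p = 0.0052, adjusted p = 0.259, edgeR), and the difference between both types was not tested. Cebpb was most abundant in microglia-like cells (control mean 672 CPM). The summed level of 7 microglia markers overlapped between the groups in astrocyte-like cells, and its part in the Cebpb values was not tested. There 6 of 15 marker lists did not overlap, among them those of oligodendrocyte precursors (2135 to 2780 CPM in control and 1329 to 2036 CPM in cKO libraries), astrocytes (5886 to 6571 and 6727 to 7074 CPM), endothelial cells (61.0 to 82.7 and 91.3 to 168 CPM), neuroblasts (126 to 173 and 64.1 to 108 CPM) and fibroblasts (25.8 to 39.3 and 7.54 to 19.1 CPM), and their part was not tested. The remaining 17 partners had no called test, among them Rbbp4, Skil and Hdac2, the most abundant, with log2 fold changes of -0.10, -0.25 and -0.05 in the types where their control level was highest. Of 8 brown fat genes 6 passed the filter, Dio2, Fabp3 and Cidea being the most abundant, and 0 of 35 tests were called by edgeR (background 0.145%), with 1 unadjusted p under 0.05 (background 6.25%). Of the neighbors of Prdm16 on chromosome 4, Megf6 and Arhgef16 passed the filter beside Prdm16os and Actrt2 did not, and 0 of 14 tests were called by edgeR (background 0.145%), with 3 unadjusted p under 0.05 (background 6.25%), all of Prdm16os.

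The genes whose control pattern was most like each member were taken from 10920 genes with a mean of at least 10 CPM, by the Pearson r of log2(CPM + 1) over the same 33 points. For Prdm16 these were Mgst1 (r = 0.91), Cbs, Lxn, Dkk3 and C030037D09Rik (0.89 to 0.88). For Mecom they were Slc16a4 (0.98), Pglyrp1, Hmcn1 and Robo4 (0.97 to 0.96), and for Prdm2 they were Nsd1 (0.86), Mfsd4a, Yy1, Bptf and Zfp830 (0.86 to 0.83). Prdm4 was most like Ap1m1 (0.81) and Prdm10 most like Ylpm1 (0.80). Prdm8 was most like Nudc (0.94), a value that rests on the few types where it was counted at all.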

How the data were processed

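Raw counts, UMIs per gene and barcode, were deposited by the authors, who had aligned 10x Genomics 3′ reads to mm10 (GRCm38) with Cell Ranger, without normalization. Per the file headers the version was 6.0.1 for control and cKO libraries 1 and 2 and 6.1.1 for the other 3. Of the identifiers 32158 were found in GENCODE vM21. The genes and lists were chosen with earlier results of these data known.

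Cells with 500 to 7000 genes and at most 10% mitochondrial counts were integrated and clustered in Seurat 5.3.0 (R 4.3.3, 30 principal components, resolution 0.15), leaving the PRDM genes out of the features. A name needed 3 or more markers, each present in 10% of the cells of the cluster and 1 or more above other cells in log2, and was withheld where the leading genes belonged to another type. Doublets marked by Scrublet (scanpy 1.11.5, 1043 cells, 2.41%) were kept. Counts were summed per library and type (at least 10 cells) and tested with edgeR 4.0.16 (expression filter, TMM, robust quasi-likelihood) in 1 fit of all 7 libraries, with Benjamini-Hochberg adjustment at 0.05. In this fit the spread of the DKO group is taken from the others. The test was tried on simulated data.

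Fold changes are given for Prdm16 in NSC-, astrocyte-, ependymal-, TAP- and neuroblast-like cells, for each gene in its highest tested type and wherever an unadjusted p was under 0.05. List genes are named where called, otherwise up to 3 by highest control level, and some genes that these rules select are not reported here. The exact permutation tests were two-sided, and intervals and limits from 0 counts cover counting error only. Counts differed between all libraries of a group by more than sampling noise. Equal replicate numbers have no stated shared origin. Deviations from the group means correlated over 0.1 in all 3 pairs (0.31, 0.16 and 0.44) in oligodendrocyte-like cells and in no other type, and there the block changed no call of the 6 genes. Alternatives were DESeq2 1.42.0, other normalization and filters, left-out libraries, other clusterings and the Cell Ranger version. The splits of endothelial- and mural-like cells, the Prdm16os ratio and Prdm13 were added after the data were seen.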

Additional observations from a re-analysis of the deposited data

Results flagged for a closer look

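For 2 genes every cKO library lay above every control library in 1 tested type and below in another, and the difference between the types was not tested. Over all genes and types 11.1% of tests had no overlap, 7.2% with the cKO libraries below and 3.9% with them above. Prdm8, 1 of the 2 genes, passed the filter on low counts in neuron-like and ependymal-like cells only through libraries of the higher group. The mean of Prdm8 was higher in cKO than in control by 1.39 CPM in neuron-like cells, where all 7 libraries held 16 UMIs, 13 of them in the small cluster of 469 cells that made up 68 of 184, 15 of 192 and 77 of 802 neuron-like cells in control libraries 1, 2 and 3 and 60 of 179, 35 of 124 and 134 of 777 in cKO libraries 1, 2 and 3, and changed by -2.99 CPM in ependymal-like cells. That of Prdm16os was higher by 7.15 CPM in ependymal-like cells and changed by -1.17 CPM in neuroblast-like cells, from 61 UMIs in all. In OPC-like cells, where Prdm16os did not pass the filter on low counts, all cKO libraries were also below all control libraries (at most 1.05 CPM against at least 1.09 CPM). Groups of 3 libraries are too small to look for a single library far from the rest.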

How the results depend on the processing

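The log2 fold changes of Prdm16 in NSC-, ependymal- and TAP-like cells and of Prdm4 in astrocyte-like and Prdm8 in ependymal-like cells kept their direction in every alternative that gave a value, between -0.62 and -0.08, -0.90 and -0.29, -0.53 and -0.18, -1.37 and -0.33, and -2.25 and -1.34, leaving aside for Prdm8 the fit without cKO replicate 1, which gives no size. Only 15 alternatives gave a value for Prdm8, against 20 for Prdm16 in ependymal-like cells. Prdm8 passed the filter on low counts there only through control libraries, where it was higher. Its kept direction is thus no independent support. Others reversed: Prdm16 in astrocyte-like cells to -0.23 with NSC- and astrocyte-like cells together, Prdm16 in neuroblast-like cells to 0.079 with version 6.0.1 alone, and with the pair of version 6.1.1 Mecom in endothelial-like cells to -0.12, Prdm4 in TAP-like to 0.079 and Prdm10 in neuron-like to -0.13. Prdm2 in neuroblast-like cells, near 0, became 0.011 with the replicate block, 0.072 with cKO and DKO together, 0.0086 at 5% mitochondrial counts, 0.054 at resolution 0.3, 0.046 without integration, 0.15 with version 6.0.1 and -0.20 to 0.094 without 1 library. The cause was not tested. The called tests of the 6 genes were 0 in all alternatives but 1 without cKO replicate 1 (Prdm8 in ependymal-like cells), so 0 to 1 without 1 library, and those with an unadjusted p under 0.05 were 0 to 5. The pairing by replicate number, as a block, changed no call of the 6 genes. Called tests in the gene lists were 1, against 3 with DESeq2, 3 without a filter, 3 with the block, 0 at 5% mitochondrial counts, 2 without doublets, 2 at resolution 0.3, 2 with the version as a block and 0 to 4 without 1 library. Over all 7 libraries the level was 60.6 CPM for Prdm16 in NSC-like, 2.22 for Prdm8 in ependymal-like and 16.1 for Prdm10 in neuron-like cells. Thinned to 1000 UMIs, where lower shares follow from fewer UMIs, 6.55% of NSC-like cells held Prdm16, 22.4% of endothelial-like Mecom, 5.36% of neuroblast-like Prdm2, 1.49% of TAP-like Prdm4, 0.246% of ependymal-like Prdm8 and 1.51% of neuron-like cells Prdm10.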

Other observations

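The unnamed clusters held the genes as well. The largest, of 3350 cells with a median of 1185 UMIs, had 34.4 CPM of Prdm16 and 62.3 CPM of Prdm16os from all libraries together. A cluster of 1758 cells, 1250 of them from control library 2, had 8.16 CPM of Prdm16. The cluster of 342 cells with endothelial and pericyte markers had 197 CPM of Mecom and 22.0 CPM of Prdm16, and the smallest, of 175 cells with astrocyte and neuroblast markers, had 33.9 CPM of Prdm16 and 0.983 CPM of Mecom.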
